A study of Sus scrofa with 6 samples.

Results

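The smooth muscle contractile genes of pig jejunum were followed through 6 RNA-seq libraries as a set of 10 genes: MYH11, ACTG2, DES, ACTA2, TAGLN, CNN1, LMOD1, SYNPO2, MYLK and SMTN. They were taken by gene name from a deposited table of 24358 genes, and each name matched 1 row. Jejunum, which lies between duodenum and ileum, came from weaned piglets of a Large White x Landrace cross. The 3 control samples were taken from piglets without transport and the 3 transport samples from piglets after transport, and all 6 were described as healthy. The list was drawn up with it already known that control 2 holds little smooth muscle RNA, so the levels of the 10 genes by library are given as a description with no test.

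Smooth muscle forms the outer coat of the gut wall, the thin muscle layer under the mucosa and the walls of blood vessels. Its cells shorten when actin filaments slide along myosin filaments, and in them contraction starts when calcium and calmodulin switch on a kinase that phosphorylates the myosin light chain. In the intestine the muscle coat drives mixing and peristalsis, and in humans damaging variants of ACTG2, MYH11, LMOD1 or MYLK cause visceral myopathy, in which the bowel fails to propel its contents.

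Total counts ran from 48208451 to 53739246 per library, and that of control 2, 49990366, lay within the range of the others. Epithelial markers were abundant in every library, with a summed FPKM (counts scaled by the authors to the length of the transcript and the depth of the library) of 1233 to 3516 over 13 genes. Transport 3 stood apart by its B cell markers, at a summed FPKM of 828.5 over 9 genes against 8.66 to 14.9 in the other 5 libraries. Nothing in the labels says whether each sample is from its own piglet, so p-values cover only the sample-to-sample spread, part of which may be technical. How the jejunal samples were dissected, and how much of the muscle coat each one kept, is not given in the sources used here. In bulk tissue, fewer muscle cells and less RNA per muscle cell cannot be told apart.

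MYH11 encodes the smooth muscle myosin heavy chain, the motor itself. Its FPKM was 554, 8.56 and 448 in controls 1 to 3 and 643, 199.9 and 261 in transports 1 to 3, from counts of 228138, 3645, 194276, 273972, 86848 and 119606. Control 2 was far below every other library and the groups overlapped. ACTG2 encodes gamma-2 actin, the main actin of visceral muscle. Its FPKM was 401, 3.86 and 612 across the controls and 323, 237 and 197 after transport. The 3 transport libraries lay within a 1.64-fold range, between control 2 and the other controls. ACTA2 encodes alpha-2 actin, which also marks vascular smooth muscle, pericytes and myofibroblasts. It was at 42.7, 13.8 and 74.6 FPKM across the controls and 65.8, 36.3 and 15.7 after transport, so that control 2 and transport 3 were nearly level.

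DES encodes desmin, the intermediate filament that ties the contractile units together. Its FPKM was 237, 4.71 and 442 in controls 1 to 3 and 302, 131 and 118 in transports 1 to 3. The same order of libraries was seen as for the actin ACTG2, with control 3 highest and control 2 lowest, except that transport 1 lay above control 1. TAGLN, or transgelin, is an actin-binding protein of smooth muscle, and CNN1, or calponin, binds actin and dampens the myosin motor. TAGLN was at 417, 17.8 and 643 FPKM across the controls and 526, 240.1 and 206 after transport. CNN1 was at 293, 9.11 and 473 FPKM across the controls and 418, 173 and 179.8 after transport. In both genes controls 1 and 3 and transport 1 were the 3 highest libraries and transports 2 and 3 came next.

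SMTN encodes smoothelin, an actin-binding protein of contractile smooth muscle. Its FPKM was 76.8, 14.3 and 86.6 across the controls and 96.0, 38.7 and 29.3 after transport, and with ACTA2 it kept the most of its level in control 2. LMOD1, leiomodin-1, starts new actin filaments. It was at 29.8, 1.05 and 20.8 FPKM across the controls and 30.9, 13.7 and 12.5 after transport. SYNPO2, synaptopodin-2, bundles actin and was the least abundant of the set, at 12.8, 0.353 and 9.34 FPKM across the controls and 11.7, 2.68 and 5.61 after transport. MYLK encodes the myosin light chain kinase that sets off contraction. Its FPKM was 94.8, 1.13 and 109 across the controls and 116, 40.2 and 29.4 after transport. All 3 genes were lowest in control 2, and transport 2 was the second lowest library only for SYNPO2.

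**Figure D1:**
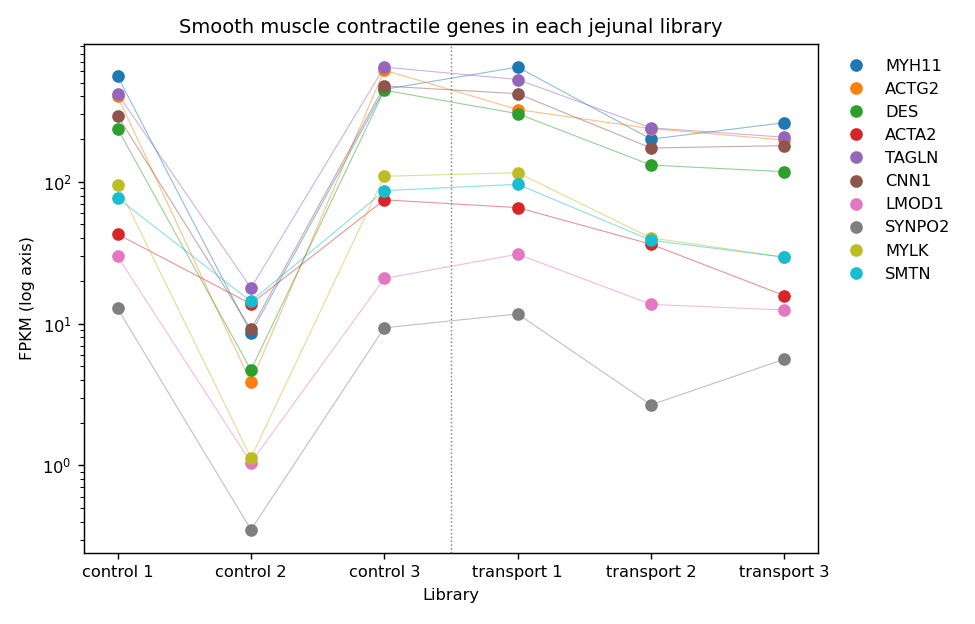
FPKM (log axis) of the 10 genes in each of the 6 libraries, where points of 1 colour belong to 1 gene and lines only join them. All 10 genes are lowest in control 2, and controls 1 and 3 and transport 1 lie above transports 2 and 3.

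The order of the libraries was shared by the whole set. All 10 genes were lowest in control 2, and in all 10 each of controls 1 and 3 and transport 1 lay above both transports 2 and 3. The highest library was control 3 for 5 genes, transport 1 for 4 and control 1 for 1. Transport 2 lay above transport 3 for 7 genes and below it for 3. Together the 10 genes took 1.12%, 0.0325% and 1.35% of all counts in controls 1 to 3 and 1.29%, 0.521% and 0.524% in transports 1 to 3. Their summed FPKM was 2159, 74.7 and 2919 across the controls and 2532, 1113 and 1054 after transport. The order cut across the groups, since the 3 highest libraries were 2 controls and 1 transport library.

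The drop in control 2 differed in size between the genes. Against the mean of controls 1 and 3, ACTG2 was at 0.762% in control 2, MYLK at 1.11%, DES at 1.39% and MYH11 at 1.71%. CNN1, SYNPO2, TAGLN and LMOD1 followed at 2.38%, 3.19%, 3.37% and 4.13%. SMTN and ACTA2 stood apart at 17.6% and 23.5%. These shares rest on 182 counts for LMOD1, 230 for SYNPO2 and 500 or more for the rest, and the exact Poisson interval (95%) of the LMOD1 count spans -14.0% to 15.6% of it, counting error only. A fall of at least 8-fold in control 2 against the median of the other 5 libraries, on TMM-scaled log2 CPM, was found for 8 of the 10 genes and for 273 of 12012 genes tested (2.27%). Since the list was made knowing of this library, nothing is read from that difference. ACTA2 and SMTN missed that limit, at 1.62 and 2.41 on the log2 scale, and LMOD1, at 4.14, was the gene nearest inside it.

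Outside control 2 the share of each gene in the sum varied less than its level. TAGLN held between 19.3% and 22.04% of the summed FPKM of the 10 genes in the other 5 libraries, CNN1 13.6% to 17.1% and DES 10.98% to 15.1%. MYH11 and ACTG2 varied more, at 15.4% to 25.7% and 12.8% to 21.3%. MYH11 was 1.99 times as abundant as ACTG2 in transport 1 and 0.732 times as abundant in control 3, a 2.72-fold range that does not follow the groups. SYNPO2 relative to ACTG2 had the widest range among the 5 libraries, 3.21-fold, and TAGLN relative to ACTG2 the narrowest, 1.61-fold. In control 2 the make-up was different. ACTA2 held 18.4% of the summed FPKM there and SMTN 19.2%, against 1.49% to 3.26% and 2.78% to 3.79% in the other libraries. ACTG2 held 5.17% in control 2, so that ACTA2, the actin shared with vessels, was 3.56 times as abundant as the visceral actin, against 0.0800 to 0.204 times elsewhere. The actin genes are close to identical in the proteins they encode. How any reads shared between the genes were assigned is not given in the sources used here.

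**Figure D2:**
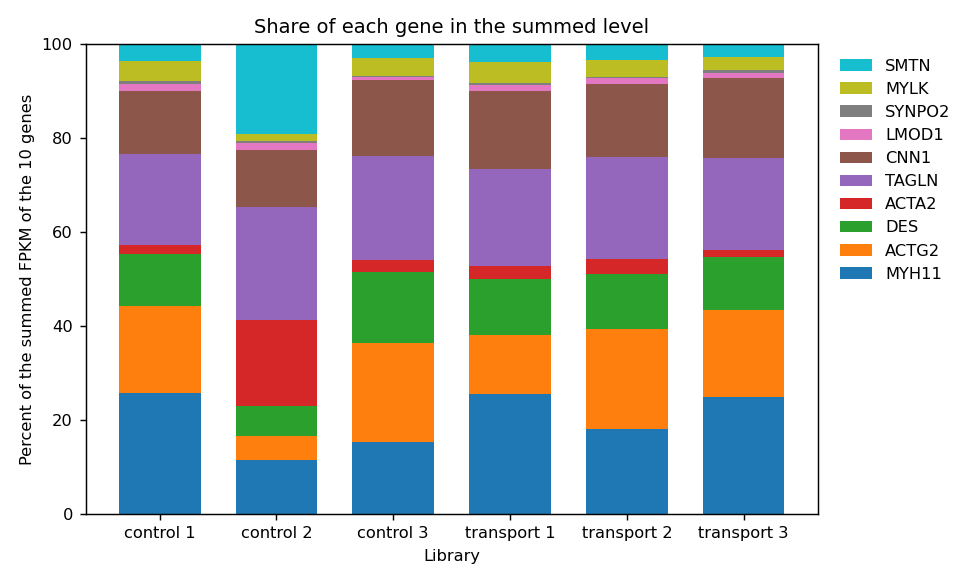
Stacked bars of the percent of the summed FPKM that each of the 10 genes held in each library. In control 2, ACTA2 and SMTN together take a far larger part than in the other 5 libraries, where each held under 4% of the sum.

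Neighbouring genes touch 4 of the rows. NDE1 overlaps MYH11 and PCSK7 overlaps TAGLN, both on the other strand, and whether strand was used in counting is not given in the sources used here. NDE1 was at 3.35 FPKM in control 2, beside 8.56 for MYH11, and at 2.99 to 9.03 in the other libraries. PCSK7 was at 7.81 FPKM in control 2, beside 17.8 for TAGLN, and at 13.1 to 30.4 in the other libraries. The part of such shared reads in the low values of MYH11 and TAGLN was not tested. The genes overlapping CNN1 and SMTN had at most 0 and 5 counts. In the coordinates of the deposited table, whose genome build is not named, MYH11 (ENSSSCG00000000146) spans 7002706 to 7143100 on the plus strand of chromosome 3 and ACTG2 (ENSSSCG00000008294) 69094860 to 69121547 on the minus strand of the same chromosome.

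Whether the contractile genes differ after transport was asked with edgeR's quasi-likelihood test over the whole table, and no difference was detected. All 10 genes passed the filter on low values, which asked for 1 FPKM or more in 3 or more libraries. None was called at an adjusted p under 0.05, and DESeq2 called none. None had an unadjusted p under 0.05 in edgeR, a limit met by 5.13% of all genes tested. Over all 12012 genes tested, edgeR called 2 (0.0167%), both higher and neither in the set, and DESeq2 called 0.42% of 11915 genes with an adjusted p. None of the 10 genes was free of overlap between the groups in FPKM, against 11.1% of all genes tested.

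In that edgeR fit the log2 fold change of transport against control was 0.08 ± 1.18 (standard error, n = 3 against 3) for MYH11, -0.44 ± 1.25 for ACTG2 and -0.32 ± 1.19 for DES. The adjusted p-values of the 10 genes ran from 0.974 to 0.998. The median over the 10 genes was -0.16, against 0.07 over all genes tested, with 8 genes below 0 and 2 above. The standard errors of the 10 genes ran from 0.702 to 1.26, above the size of every one of these log2 fold changes. Within the controls the highest library was 5.42 (ACTA2) to 159 (ACTG2) times the lowest, and within the transport group 1.64 (ACTG2) to 4.37 (SYNPO2) times.

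The sign of the difference turned with single libraries left out. Without control 2 all 10 log2 fold changes were below 0, with a median of -0.66, and the mean FPKM after transport was 0.498 (ACTG2) to 0.752 (LMOD1) times the mean of controls 1 and 3. Without transport 1 all 10 were also below 0, with a median of -0.72. The median was 0.14 without control 1, 0.28 without control 3, 0.03 without transport 2 and 0.18 without transport 3. With the replicate number as a block it was 0.65, and 9 of 10 genes were above 0. The 3 pairs of equal number went different ways: the ratio of transport to control for DES was 1.27 in pair 1, 27.8 in pair 2 and 0.267 in pair 3. For MYH11 the same ratios were 1.16, 23.4 and 0.582. No member was called under any of the 14 other settings, where the lowest adjusted p was 0.718, and neither a rise nor a fall of the set after transport can be stated from these libraries.

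**Figure D3:**
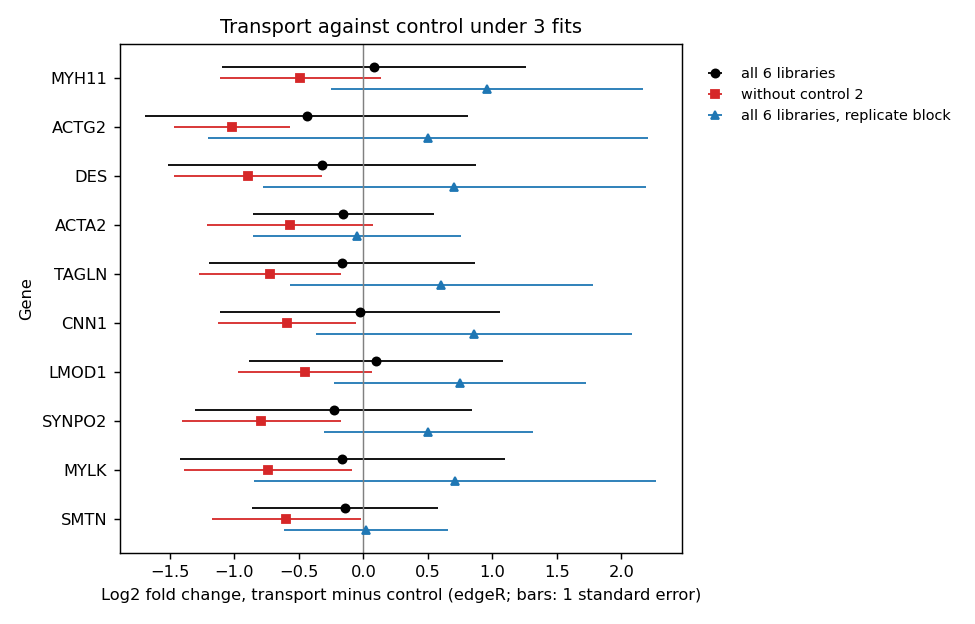
Log2 fold change, transport minus control, of each gene with 1 standard error in 3 edgeR fits. With all 6 libraries the points lie between -0.44 and 0.10, without control 2 all are below 0, and with the replicate block 9 of 10 are above 0.

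Other parts of the contractile apparatus were described by lists chosen for their function. Of 28 further filament and cytoskeleton genes in the table, 26 were tested and none was called in either direction by edgeR, as against 0.0167% of all genes. Their median log2 fold change was 0.08, with 15 above 0 and 11 below, and it ran from -0.40 to 0.36 with 1 library left out. MYL9, the regulatory light chain that MYLK phosphorylates, was at 119, 5.36 and 176 FPKM in controls 1 to 3 and 181, 84.6 and 69.0 in transports 1 to 3. The tropomyosin TPM2, which lies along the actin filament, was at 193, 10.1 and 268 FPKM across the controls and 249, 115 and 101 after transport. TPM1, a second tropomyosin, was at 16.0 FPKM in control 2 and 78.6 to 214 elsewhere. All 3 genes had the library order of the muscle genes. MYL6, an essential light chain that non-muscle myosin also uses, was at 786, 542 and 790.0 FPKM across the controls and 842, 616 and 419.9 after transport, and control 2 was not its lowest library.

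Among genes that start and end contraction, 15 of 20 tested for signalling and 12 of 17 for calcium handling and ion channels were lowest in control 2. The same share over all genes tested was not counted, and some of these genes were lowest there by little. As list medians, control 2 held 50.3% and 20.9% of the mean of controls 1 and 3, against 94.8% for all genes tested. The most abundant signalling genes, GNA11 and RHOA, were at 121% and 146% of that mean. Of 21 signalling genes in the table, 20 were tested and none was called (median log2 fold change 0.16). With 1 library left out that median ran from 0.13 to 0.57, and it was -0.08 without both control 2 and transport 3. PPP1R12B, a subunit of the phosphatase that relaxes muscle, was at 43.8, 3.83 and 23.4 FPKM across the controls and 36.4, 17.4 and 20.2 after transport. The more widely expressed ARHGEF1, an activator of RhoA, was at 12.02 FPKM in control 2 and 12.7 to 28.7 in the others. In the list of calcium handling and ion channels, 17 of 21 were tested and none was called (median 0.01, from -0.52 to 0.33 with 1 library left out). KCNMB1 encodes the beta-1 subunit of the large calcium-activated potassium channel of smooth muscle. It was at 41.3, 0.766 and 40.5 FPKM across the controls and 49.5, 19.6 and 15.8 after transport, again in the order of the set. ATP2A2, the calcium pump of the endoplasmic reticulum in many cell types, was at 40.2 FPKM in control 2, above control 1 (33.7) and the transports (26.1 to 26.5).

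Of 17 receptor genes, 9 were tested and none was called. Their median log2 fold change was -0.68, and -0.96 to -0.32 with 1 library left out. The neurokinin receptor TACR2, which excites gut muscle, was at 4.74, 0.379 and 4.12 FPKM across the controls and 6.55, 3.46 and 1.86 after transport. CHRM3 is the muscarinic receptor that couples acetylcholine to contraction, and other gut cells also carry it. It was highest in control 2, at 3.26 FPKM against 0.707 to 2.52. HTR4, the most abundant of the list, was at 4.97 FPKM in control 2 and 0.642 to 7.17 elsewhere. Of the 9 receptors tested, 3 were lowest in control 2. As a list median, control 2 held 39.6% of the mean of controls 1 and 3. Of 21 transcription factor genes, 17 were tested and none was called (median 0.14, from -0.05 to 0.30 with 1 library left out). As a median over these tested factors, control 2 held 77.6% of the mean of controls 1 and 3, against 94.8% for all genes tested. The most abundant factors, TEAD3, GATA6 and KLF4, were at 109%, 116% and 84.3% of that mean. SRF, the factor that binds the promoters of many contractile genes, was lower there. It was at 13.4, 6.34 and 12.2 FPKM across the controls and 12.5, 8.80 and 19.4 after transport. Its muscle-restricted partner MYOCD, or myocardin, was singled out after its values were seen. It had 8 counts in control 2 (0.0407 FPKM) and 0.418 to 2.25 FPKM elsewhere, too low for the test. Of 24 genes for membrane anchors and caveolae, 21 were tested and none was called (median -0.09, from -0.42 to 0.11 with 1 library left out and 0.11 with the replicate block). CAVIN1, a coat protein of caveolae, was at 29.4, 6.07 and 33.4 FPKM across the controls and 28.8, 14.4 and 13.3 after transport.

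Markers of other cells of the gut wall moved with control 2 to different extents. As a median over the tested genes of each list, control 2 held 2.78% of the mean of controls 1 and 3 for the 10 contractile genes and 94.8% for all genes tested. It held 5.58% for 9 enteric neuron and glia markers, 16.6% for 14 fibroblast markers and 19.4% for 5 markers of interstitial cells of Cajal, the pacemakers of the muscle coat. It held 31.7% for 5 vascular mural cell markers, 49.6% for 9 endothelial markers and 128% for 13 epithelial markers. The 5 markers of interstitial cells of Cajal differed widely, from 7.81% (ANO1) to 80.0% (ELOVL6). The part of these cell types in the low values of the contractile genes was not tested.

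**Figure D4:**
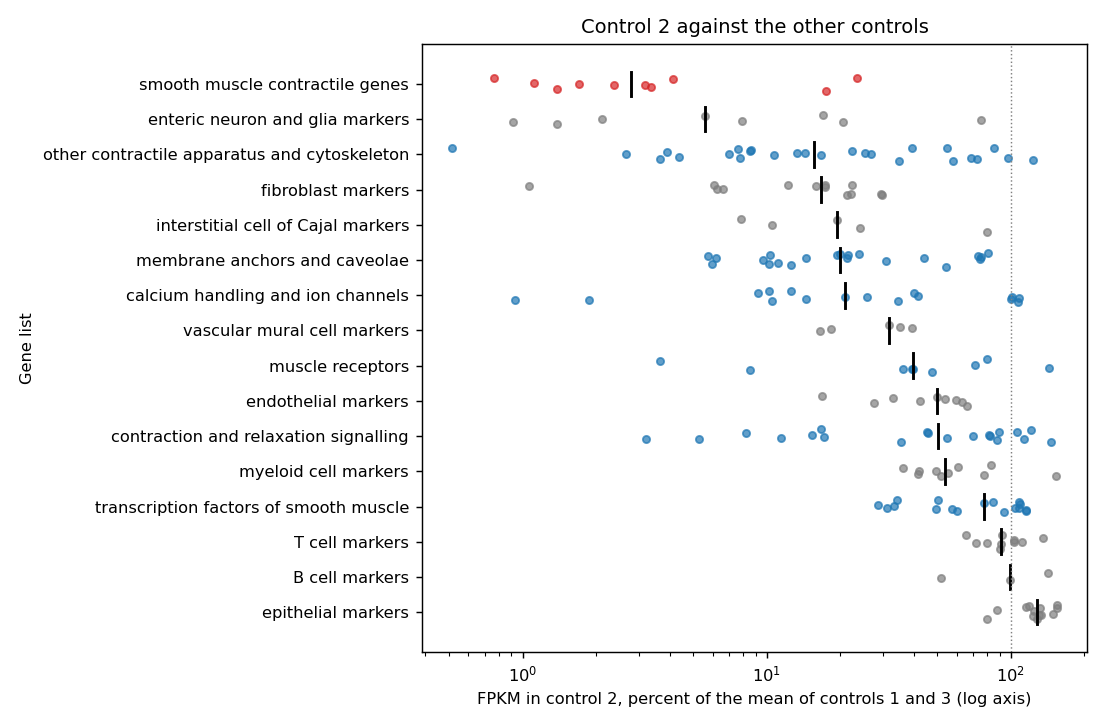
FPKM in control 2 as a percent of the mean of controls 1 and 3 (log axis), 1 point per tested gene with a count in control 2, grouped by list with the list median as a black bar. The contractile genes (red) lie lowest, with a median of 2.78%, and epithelial markers highest, with a median of 128%.

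VIP, a relaxing neuropeptide of enteric neurons, was at 24.8, 0.216 and 22.6 FPKM in controls 1 to 3 and 16.0, 8.05 and 6.74 in transports 1 to 3. Over the whole neuron and glia list, 19 genes summed to 9.88 FPKM in control 2, 68.4 and 82.2 in the other controls and 29.7 to 72.9 after transport, and 7 of the 19 had no count in control 2. Fibroblast genes, 14 in all, summed to 87.3 FPKM in control 2, 578 and 895 in the other controls and 452 to 691 after transport. Among them COL3A1, a fibrillar collagen, was at 12.5 FPKM in control 2 and 165 to 234 in the other libraries. The 12 vascular mural genes summed to 17.2 FPKM in control 2, 45.3 and 54.9 in the other controls and 35.1 to 63.6 after transport. RGS5, a pericyte marker, was at 3.92 FPKM in control 2 and 8.26 to 16.8 elsewhere. LGALS4, an epithelial lectin, was at 843 FPKM in control 2 and 295 to 768 elsewhere, and 7 of the 13 epithelial genes were highest in control 2.

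Transports 2 and 3 had similar sums of the contractile genes, although ACTA2 was higher in transport 2 and SYNPO2 in transport 3, and differed in other markers. The epithelial genes summed to 3131 FPKM in transport 2 and 1233 in transport 3, and the B cell genes to 13.3 and 828.5, while the contractile genes summed to 1113 and 1054.

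**Figure D5:**
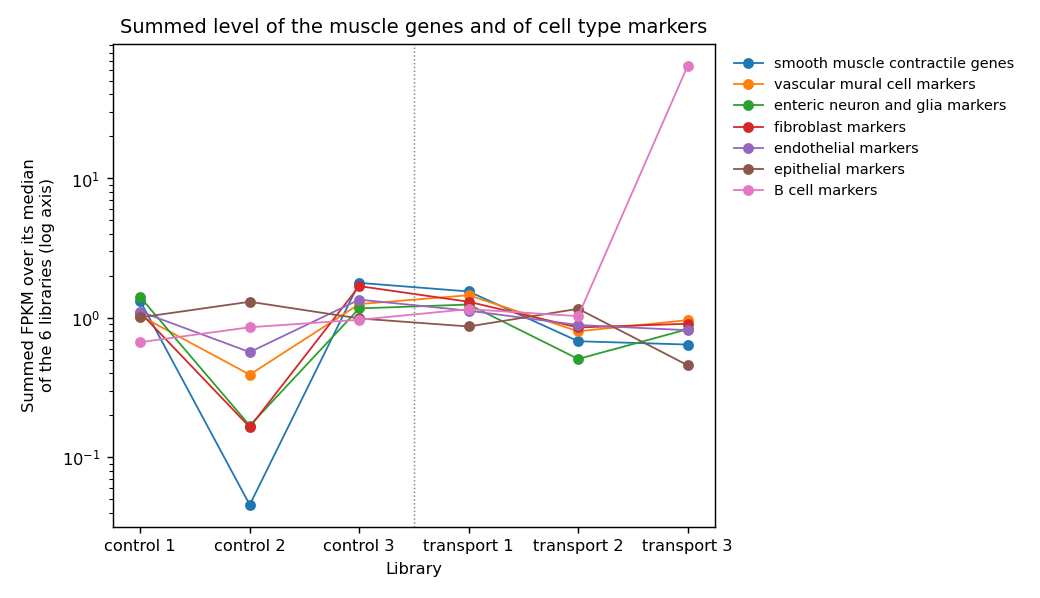
Summed FPKM of the contractile genes and of 6 cell type lists in each library, divided by the median of the 6 libraries (log axis). The contractile genes drop furthest in control 2, fibroblast and neuron and glia markers drop less, and the B cell markers stand out in transport 3.

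Skeletal and cardiac muscle markers were searched for in the same libraries. Of 13 such genes in the table, 9 stayed under 1 FPKM in every library. ACTC1, cardiac actin, was at 19.7, 4.46 and 22.6 FPKM across the controls and 11.3, 11.2 and 3.58 after transport, and may share reads with ACTA2 and ACTG2. CKM, the muscle creatine kinase, was at 12.6, 0.217 and 15.9 FPKM across the controls and 14.0, 6.05 and 4.71 after transport. Of 8 mesothelial markers, which label the outer lining of the gut, MSLN and KRT19 were not found by name and could not be looked at. The 6 in the table stayed under 1 FPKM in every library.

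The genes whose pattern was most like that of the set were ranked among 6863 named genes with a mean FPKM of at least 5. Likeness was the root mean square difference between centred log2 CPM and the mean profile of the 10 genes over the 6 libraries. MYL9 (0.17) and TPM2 (0.18) came first, closer than every member except TAGLN (0.12). DKK3 (0.20), OLFML2B (0.22), HSPB8 (0.26), MSRB3 (0.29) and PYGM (0.31) followed, and PDLIM3 (0.31), KCNMB1 (0.31) and TTC23 (0.33) completed the 10. DKK3, a secreted protein of the Dickkopf family, was at 19.9, 0.733 and 20.0 FPKM across the controls and 17.4, 7.38 and 6.69 after transport. PYGM, the glycogen phosphorylase of muscle, was at 17.2, 0.645 and 19.4 FPKM across the controls and 17.6, 7.66 and 12.6 after transport. Among the members themselves SMTN (0.92) and ACTA2 (1.14) were the least like the mean profile.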

How the data were processed

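RNA from 3 control and 3 transport samples of piglet jejunum was extracted with Trizol and made into libraries by standard Illumina protocols, per the labels' protocols. Per the file headers, the deposited table gives a count and an FPKM per gene and library, both computed by the authors. No aligner, counter, strand setting or build is named (not given in the sources used here). Transport columns carry another prefix than the labels and were matched by group and replicate number.

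Counts were tested with edgeR 4.0.16 in R 4.3.3 (TMM scaling, quasi-likelihood, group as the only factor, Benjamini-Hochberg adjustment over the 12012 genes at 1 FPKM or more in 3 or more libraries), and the script was tested on simulated data. DESeq2 1.42.0 and limma 3.58.1 were alternatives. Standard errors derive from the quasi-likelihood F. Where a symbol had several rows, that of highest mean FPKM was used, and 951 of 6907 bare identifiers took a symbol from a gene name reference. Named list genes are among the 4 of highest mean FPKM in their list, except MYOCD. The members, lists and rules were chosen with earlier results of these data known. Across genes, deviations from the group mean correlated at r = 0.217, 0.111 and 0.187 for libraries of equal number. The values for unequal numbers were -0.261 to 0.101, and the meaning of the number is not stated in the labels. Such deviations cancel out within a group, so positive values in some pairs bring negative values in others. The contrast is thus partly built in, and the replicate block was used only as an alternative. Promoter motifs were planned and not analysed here.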

Additional observations from a re-analysis of the deposited data

How the results depend on the processing

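The number of genes edgeR called, 2, became 50 with DESeq2 (27 higher and 23 lower) and 1 with limma on log2(FPKM + 1), with limma on log2(FPKM + 0.1), with a minimum mean of 5 FPKM and without both control 2 and transport 3. It ran from 0 to 3 with 1 library left out. The median log2 fold change of the 10 contractile genes, -0.16, turned to 0.85 and 1.02 in the limma fits with pseudocounts of 1 and 0.1 and to 0.65 with the replicate block. With 1 library left out it ran from -0.72 to 0.28, and it was -0.37 without both control 2 and transport 3. The cause of these turns was not tested.

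By gene, the limma fits with pseudocounts of 1 and 0.1 turned ACTG2 to 1.22 and 1.32, DES to 0.99 and 1.07, TAGLN to 0.79 and 0.81, CNN1 to 1.07 and 1.12, SYNPO2 to 0.23 and 0.59, MYLK to 0.90 and 1.14, and SMTN to 0.053 and 0.063. The replicate block turned ACTG2 to 0.50, DES to 0.70, TAGLN to 0.60, CNN1 to 0.86, SYNPO2 to 0.50, MYLK to 0.71 and SMTN to 0.02. Without both control 2 and transport 3, MYH11 turned to -0.26 and LMOD1 to -0.20, and CNN1 turned to 0.001 with a minimum mean of 5 FPKM. With 1 library left out the ranges were -0.62 to 0.72 for MYH11, -1.02 to 0.22 for ACTG2, -0.89 to 0.50 for DES, -0.73 to 0.39 for ACTA2, -0.72 to 0.48 for TAGLN, -0.59 to 0.66 for CNN1, -0.45 to 0.83 for LMOD1, -0.95 to 0.48 for SYNPO2, -0.99 to 0.27 for MYLK and -0.83 to 0.17 for SMTN. The level of control 2 against controls 1 and 3, 2.78% as the median of the 10 genes, was 2.95% with TMM-scaled CPM, an alternative chosen after seeing the data. With 3 libraries a group, of which 1 control lacks most of the muscle RNA, no change of the set after transport was resolved. Without control 2 edgeR called 0 of the 12012 genes tested, and the adjusted p was 0.9993 for each of the 10 genes. The standard errors of all 10 genes were smaller in that fit. That of ACTG2 went from 1.25 with all 6 libraries to 0.45, that of DES from 1.19 to 0.57 and that of ACTA2 from 0.70 to 0.65. What limited the comparison was not tested. The replicate block changed no call of the 10 genes.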
